A study of Mus musculus with 12 samples.

Results

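The genes described here encode the machinery that copies DNA in S phase, from the proteins that license replication origins to the polymerases, the sliding clamp, the enzymes of nucleotide supply and the cyclin E kinase. The set is a list of 46 gene symbols listed by their role in replication. Each member was read from the probe set that named it as its only gene and was brightest over the 12 arrays, which gave 45 measured members among 18194 genes on the arrays. The remaining symbol, Chaf1a, was not analysed here.

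The series measured gene expression in granule cell progenitors from mouse cerebella at postnatal day 8, isolated on a Percoll density gradient from the hemispheres (lateral cerebellum) or the vermis (midline). SmoM2 progenitors came from Atoh1-CreER/+; R26LSL-SmoM2-YFP mice given 200 µg of tamoxifen per g at postnatal day 2, and WT progenitors from mice labelled as wild type. SmoM2 is a constantly active Smoothened, the protein that passes the hedgehog signal into the cell; here it is joined to YFP, and Cre driven by Atoh1 limits its activation to cells that express Atoh1. There were 3 arrays in each of 4 groups (SmoM2 hemisphere, WT hemisphere, SmoM2 vermis, WT vermis), each array from a pool of 5 mice, all of mixed C57BL/6 and Swiss Webster background. The sources used here do not say if WT mice were also given tamoxifen. Nothing in the labels says that arrays of a group came from separate litters or preparations, so p-values measure the spread between these pools.

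As background, an origin of replication is licensed in G1 phase when the origin recognition complex, Cdc6 and Cdt1 load the ring of MCM proteins that will unwind DNA. At the start of S phase the kinases Cdc7 and Cdk2 turn that ring into an active helicase with Cdc45 and the GINS complex, after which DNA polymerases alpha, delta and epsilon copy the strands. Many of these genes are targets of E2F transcription factors, which the retinoblastoma proteins hold back until D-type cyclins and their kinases act. Granule cell progenitors divide in the outer layer of the postnatal cerebellum under Sonic hedgehog released by Purkinje cells, and then leave the cycle to become granule neurons.

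The arrays and the cell fractions were compared first. The median log2 value was 4.81 to 4.87 on every array, and arrays within a group correlated at 0.989 to 0.997. The quartiles differed by genotype. Lower quartiles were 3.241 to 3.293 on SmoM2 arrays and 3.31 to 3.42 on WT arrays. Upper quartiles were 7.038 to 7.102 on SmoM2 arrays and 6.901 to 7.05 on WT arrays, highest on WT hemisphere replicate 1. Most replication genes lay above the upper quartile. Quantile normalization run again, which gives the arrays equal quartiles, was among the alternatives described at the end. Under every alternative no member fell, and 6 members still rose in SmoM2 in the hemisphere and 8 in the vermis. How much of each difference came from the shift was not otherwise tested. The hedgehog targets Gli1, Ptch1 and Hhip followed the labelled genotype, with all SmoM2 arrays above all WT arrays in each region. Their list also holds Sfrp1 and the co-receptors Boc, Cdon and Gas1. All 7 measured genes of the list rose in SmoM2 in each region, against 7.62% and 7.56% of all genes. The median log2 differences of the list were 1.10 and 0.96. Where a pair of values stands alone, the hemisphere comes before the vermis. Atoh1, the defining transcription factor of the progenitors, was present on every array and rose in SmoM2 (by 0.82 and 0.85). It was the 1 gene that rose on a list of 7 progenitor transcription factors, of which hemisphere and vermis had 3 and 2 that fell (medians -0.24 and -0.14). Pax6 fell in both (differences -0.55 and -0.56), as did Meis1 (-0.35 and -0.39), and Barhl1 in the hemisphere (-0.97); Barhl1 differed by -0.79 in the vermis without passing. Several technical measures moved with a group. Actb 3' minus 5' probe set signal, which follows RNA integrity and labelling, was 0.46 to 0.79 on WT hemisphere arrays and at least 0.879 on the other 9 arrays. The 18S ribosomal RNA signal was 10.73 ± 0.20 in SmoM2 and 10.26 ± 0.21 in WT hemispheres, and 10.75 ± 0.03 in SmoM2 and 10.12 ± 0.10 in WT vermis (SD, n = 3 each), with no overlap between the genotypes. WT hemisphere replicate 3 had the lowest values of the dap and bioB control transcripts (9.01 and 6.81). The part of these measures in the results was not tested.

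In SmoM2 progenitors 24 of the 45 replication genes rose in at least 1 region relative to WT progenitors, none fell, and 21 passed the test in neither region. In the hemisphere 17 of 45 members rose in SmoM2 and 0 fell, at a Benjamini-Hochberg adjusted p under 0.05 from limma, against 7.62% of all genes higher and 7.18% lower. In the vermis 23 of 45 rose and 0 fell, against 7.56% of all genes higher and 9.46% lower. The members' median log2 difference was 0.26 for the hemisphere against -0.05 over all genes, and 0.38 for the vermis against -0.06 over all genes. Differences were above 0 for 41 of 45 members in the hemisphere (41.8% of all genes) and for 45 of 45 in the vermis (41.7% of all genes). All 3 SmoM2 arrays lay above all 3 WT arrays for 23 members in the hemisphere (13.4% of all genes) and for 34 in the vermis (17.3% of all genes), and below them for 0 members in either (18.3% and 22.5% of all genes). Apart from Pola1 (1.93-fold and 2.08-fold), the rises ran between 1.27-fold for Lig1 and 1.55-fold for Pola2 in the hemisphere, and between 1.24-fold and 1.58-fold for the same genes in the vermis.

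In both regions 16 members rose, namely all 6 subunits of the MCM helicase, Orc1, Cdc6, Cdc45, Pola1, Pola2, Pold1, Pole, Lig1, Rrm2 and Cdk2. Cdt1 passed in the hemisphere alone, 7 members passed in the vermis alone (Gmnn, Mcm10, Pole2, Prim1, Rfc3, Rfc4 and Tyms), and 21 passed in neither. The 2 comparisons use different arrays but share 1 estimate of the spread, and a gene that passed in 1 region alone is not thereby shown to differ between regions.

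The counts depended on single arrays. In the hemisphere 8 members passed without WT hemisphere replicate 2, 12 without WT hemisphere replicate 3 and 23 without WT hemisphere replicate 1. Leaving out a SmoM2 hemisphere array (replicate 1, 2 or 3) left 10, 9 or 11 calls. Leaving out WT vermis replicate 2 or 3 left 12 or 14 calls in the vermis, and leaving out SmoM2 vermis replicate 1 or 2 left 13 or 11. Whichever of the 12 arrays was left out, 8 members kept their call in the hemisphere (Cdc6, Mcm3, Mcm4, Mcm6, Pola2, Pold1, Pole and Rrm2) and 10 in the vermis (Cdc6, Gmnn, Mcm2, Mcm3, Mcm4, Mcm6, Mcm10, Pola2, Pole and Rrm2). No member fell in any of these fits.

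**Figure D1:**
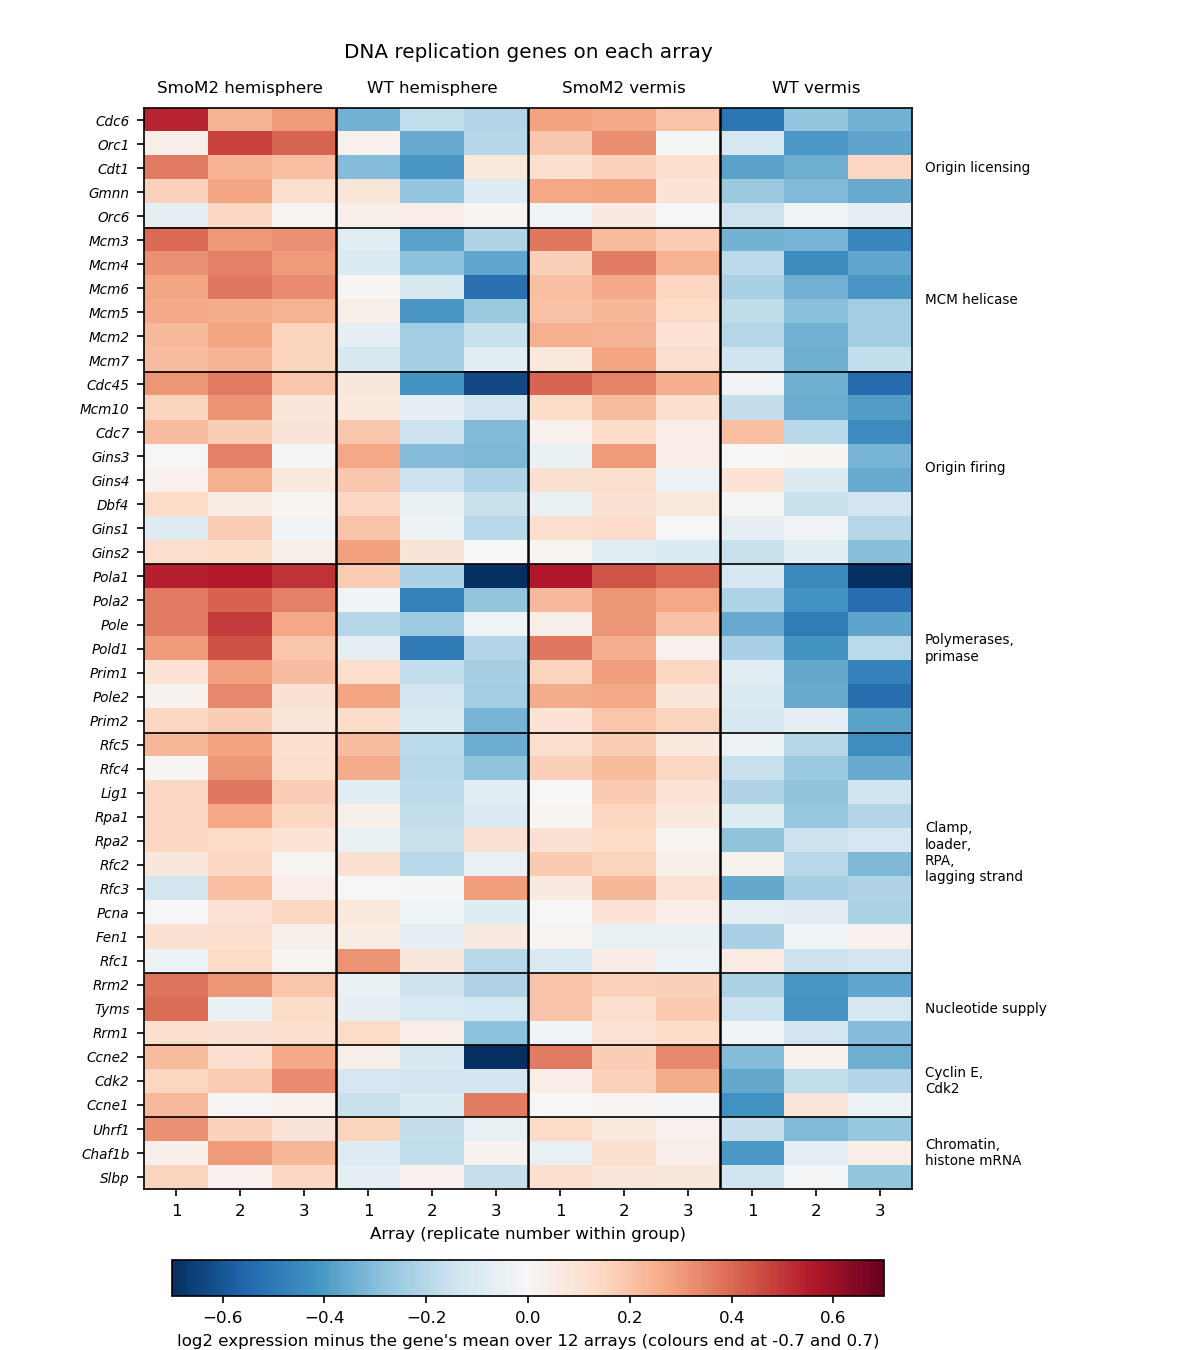
Expression of the 45 measured replication genes (rows, ordered by role) on the 12 arrays (columns, 3 for each group), as log2 expression minus the gene's mean over the 12 arrays; colours end at -0.7 and 0.7. The SmoM2 columns are mostly red and the WT columns mostly blue, while WT hemisphere replicate 1 is paler or red for many genes, with a mean over the 45 genes of 0.04 against -0.17 to -0.29 on the other 5 WT arrays.

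Taken as the mean over the 45 members of the level centred on each gene, SmoM2 hemisphere arrays stood at 0.18, 0.24 and 0.16, against 0.04, -0.17 and -0.19 in WT hemisphere arrays. SmoM2 vermis arrays stood at 0.14, 0.19 and 0.10, against -0.17, -0.23 and -0.29 in WT vermis arrays. Every SmoM2 array lay above every WT array, and the highest WT array, replicate 1 of the hemisphere, was closest to them.

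The promoters of several members are shown because the set is a textbook group of E2F targets, and the letters of these promoters can be set beside the size of the change. Windows of 300 bases, from 250 before to 50 after the annotated start, were taken from RefSeq (build GRCm38.p6) for the 36 measured members the table held. They were searched on both strands for the E2F words TTTCCCGC, TTTGGCGC, TTTCGCGC and TTTGCCGC. Capitals below mark the words, a word on the reverse strand reads as its reverse complement, as in GCGGGAAA for TTTCCCGC, and the sequences run 5′ to 3′ along the gene's strand. Mcm3, Mcm5, Mcm6 and Mcm7 (1 of its 2 promoters) are shown as helicase genes with more than 1 word. Mcm4 was not among the 36 and was not searched. Cdc6 is shown as the licensing factor with the largest change and Pola1 as the member with the largest change of all. Pcna is shown as an abundant member with no word and no call. Not shown but counted below are Cdc45, Mcm2, Pola2 and Rrm2, which rose in both regions without a word. The same holds for Gins3 and Uhrf1, which had a word and passed in neither region.
Mcm3 (chr1:20820263-20820562, minus strand): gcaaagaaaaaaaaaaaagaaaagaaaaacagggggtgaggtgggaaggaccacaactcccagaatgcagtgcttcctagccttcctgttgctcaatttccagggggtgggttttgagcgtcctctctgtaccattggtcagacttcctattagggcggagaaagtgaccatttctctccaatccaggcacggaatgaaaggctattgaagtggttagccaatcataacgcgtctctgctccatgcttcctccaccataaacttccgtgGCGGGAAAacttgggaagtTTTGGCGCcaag
Mcm5 (chr8:75109259-75109558, plus strand): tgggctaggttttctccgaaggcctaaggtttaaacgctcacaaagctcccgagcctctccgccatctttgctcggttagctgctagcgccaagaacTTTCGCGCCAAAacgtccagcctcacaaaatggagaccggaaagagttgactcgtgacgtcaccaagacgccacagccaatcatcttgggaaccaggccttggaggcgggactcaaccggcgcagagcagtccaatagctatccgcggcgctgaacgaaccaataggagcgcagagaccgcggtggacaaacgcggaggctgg
Mcm6 (chr1:128359656-128359955, minus strand): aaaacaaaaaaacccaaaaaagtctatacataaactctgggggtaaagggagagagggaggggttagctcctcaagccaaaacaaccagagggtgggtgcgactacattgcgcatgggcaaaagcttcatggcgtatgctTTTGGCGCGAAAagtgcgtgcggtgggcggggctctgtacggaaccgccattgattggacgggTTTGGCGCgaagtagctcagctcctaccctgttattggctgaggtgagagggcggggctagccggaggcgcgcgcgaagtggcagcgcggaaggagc
Mcm7 (chr5:138171834-138172133, minus strand): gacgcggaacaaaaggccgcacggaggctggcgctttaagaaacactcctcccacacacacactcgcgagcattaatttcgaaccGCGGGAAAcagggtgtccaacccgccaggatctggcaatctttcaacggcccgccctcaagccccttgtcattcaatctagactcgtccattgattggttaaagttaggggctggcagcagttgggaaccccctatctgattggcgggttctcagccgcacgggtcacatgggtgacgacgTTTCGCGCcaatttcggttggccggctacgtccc
Cdc6 (chr11:98907901-98908200, plus strand): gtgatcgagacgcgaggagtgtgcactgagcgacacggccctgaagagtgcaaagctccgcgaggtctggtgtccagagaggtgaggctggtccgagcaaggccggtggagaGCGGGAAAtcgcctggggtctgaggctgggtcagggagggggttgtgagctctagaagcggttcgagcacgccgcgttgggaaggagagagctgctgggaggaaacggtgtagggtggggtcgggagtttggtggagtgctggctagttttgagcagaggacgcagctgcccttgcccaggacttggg
Pola1 (chrX:93632106-93632405, minus strand): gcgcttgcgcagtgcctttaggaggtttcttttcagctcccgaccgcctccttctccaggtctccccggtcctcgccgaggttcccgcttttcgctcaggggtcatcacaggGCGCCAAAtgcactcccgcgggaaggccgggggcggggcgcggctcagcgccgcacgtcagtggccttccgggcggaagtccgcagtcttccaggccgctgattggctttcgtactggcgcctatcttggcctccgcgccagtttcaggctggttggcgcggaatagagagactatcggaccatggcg
Pcna (chr2:132253131-132253430, minus strand): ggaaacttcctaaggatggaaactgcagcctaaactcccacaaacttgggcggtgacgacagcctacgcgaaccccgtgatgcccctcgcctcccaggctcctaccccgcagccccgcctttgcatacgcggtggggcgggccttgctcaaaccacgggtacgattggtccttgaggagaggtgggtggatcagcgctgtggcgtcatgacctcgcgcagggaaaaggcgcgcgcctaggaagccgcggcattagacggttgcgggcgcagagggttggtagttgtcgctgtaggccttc

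E2F words were found in promoters of 15 of 36 members (41.7%). They were in 3.81% of the genes on the arrays that have a promoter in the table and in 2.6% of all genes with one. Among the members that rose in both regions 10 of 14 had a word (71.4%): Cdc6, Cdk2, Lig1, Mcm3, Mcm5, Mcm6, Mcm7, Orc1, Pola1 and Pold1. The other 4, without one in the window, were Cdc45, Mcm2, Pola2 and Rrm2. Mcm4 and Pole also rose in both regions but had no promoter to search. Among members that passed in neither region 2 of 15 had a word (13.3%), namely Gins3 and Uhrf1. Cdt1, Pole2 and Rfc3, which passed in 1 region each, also had one. The first base of the 21 words lay between positions -185 and 39 counted from the start. Words overlapped each other in Mcm5 and Mcm6, where 1 run of capitals holds both, and overlapped a CCAAT box in Mcm7. A match is a run of letters, not a bound site, and a window without one says nothing of E2F.

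Other motifs were spread differently. The CCAAT box, read by the factor NF-Y, was in 22 of 36 member promoters (61.1%) and in 42.0% of genes on the arrays, with 10 of 14 among members that rose in both regions and 9 of 15 among members that passed in neither. The cell cycle homology region TTTGAA, known from promoters of genes that peak in G2 phase and mitosis, was in 6 of 36 members (16.7%), close to the 15.7% of genes on the arrays, and in 21 of 29 genes of a mitosis list (72.4%). E2F words were in 1 of those 29 mitosis genes. These are counts of letters in chosen lists, and no test was made on them.

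**Figure D2:**
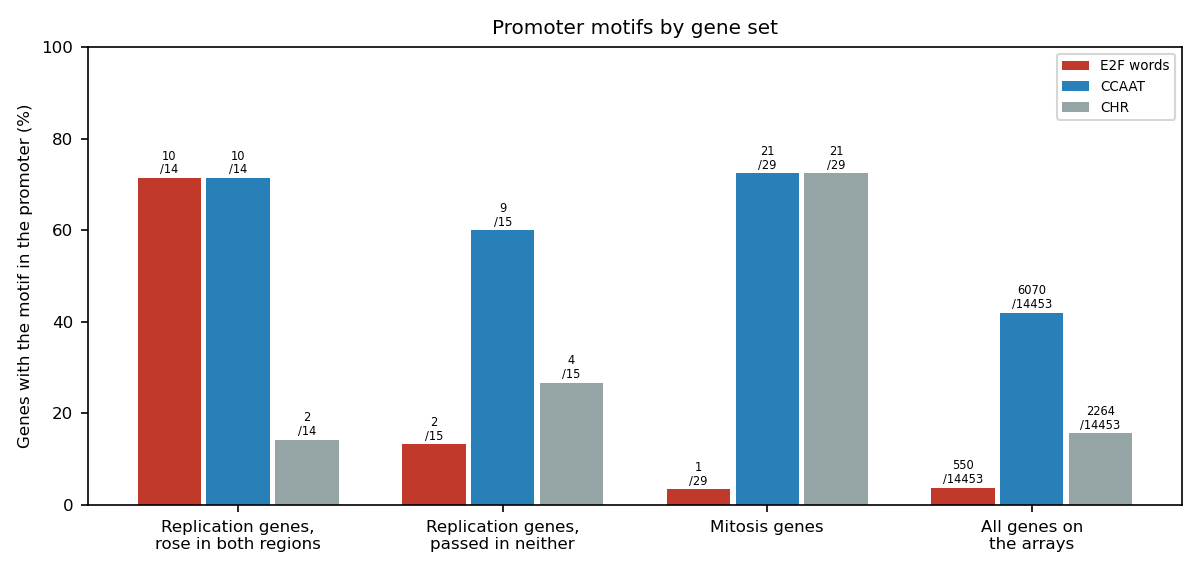
Share of genes (y axis, percent) with an E2F word, a CCAAT box or the cell cycle homology region (CHR) in the 300-base promoter, for replication genes that rose in both regions, replication genes that passed in neither, mitosis genes and all genes on the arrays with a promoter in the table; counts are printed on the bars. E2F words stand at 10 of 14 genes in the first group and at 2 of 15 in the second, and CHR at 21 of 29 in mitosis genes.

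Among the licensing factors, 3 of 5 rose in each region. Beside this and every count by role or list below, 7.62% and 7.56% of all genes rose and 7.18% and 9.46% fell. Cdc6, the ATPase that helps load the MCM ring, read 8.89, 8.59 and 8.65 in SmoM2 hemisphere arrays, against 8.02, 8.18 and 8.15 in WT hemisphere arrays. On the vermis arrays its levels were 8.63, 8.62 and 8.55 in SmoM2 vermis arrays, against 7.85, 8.08 and 8.02 in WT vermis arrays. All SmoM2 arrays lay above all WT arrays, the log2 differences were 0.59 ± 0.11 and 0.62 ± 0.11 (SE, n = 3 arrays per group; limma adjusted p = 0.00179 and 0.00123), and both calls held with any 1 of the 12 arrays left out. Orc1, the largest subunit of the origin recognition complex, read 6.17, 6.60 and 6.53 in SmoM2 hemisphere arrays, against 6.15, 5.77 and 5.93 in WT hemisphere arrays. It read in the vermis 6.31, 6.45 and 6.11 in SmoM2 vermis arrays, against 6.01, 5.72 and 5.75 in WT vermis arrays. The groups did not overlap, although hemisphere replicates 1 of the 2 genotypes lay close together. Orc1 rose by 0.48 ± 0.14 and 0.46 ± 0.14 (adjusted p = 0.0364 and 0.0397), and each call ended without 5 of the 12 arrays (adjusted p up to 0.134 and 0.15), among them replicates 2 and 3 of the WT group compared and replicate 2 of the SmoM2 group compared. The rise also rests on the probe set used. The other Orc1 probe set was nearly as bright (mean 6.00 against 6.13) and differed by 0.09 and -0.16. Neither difference passed in the limma fit over all probe sets (adjusted p = 0.799 and 0.6235).

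Cdt1, the partner of Cdc6 in loading, averaged 10.58 ± 0.08 in SmoM2 and 10.10 ± 0.25 in WT hemispheres (SD, n = 3 each) and rose by 0.49 ± 0.15 there (adjusted p = 0.0399). That call ended without 8 of the 12 arrays (adjusted p up to 0.146), including WT replicates 1 and 2 and every SmoM2 array of either region. In the vermis Cdt1 differed by 0.32 ± 0.15 (adjusted p = 0.142), and passed without WT vermis replicate 3. Geminin (Gmnn), the inhibitor that binds Cdt1 and blocks a second round of licensing, read 9.27, 9.28 and 9.09 in SmoM2 vermis arrays, against 8.74, 8.69 and 8.65 in WT vermis arrays. The vermis groups did not overlap, and Gmnn rose there by 0.52 ± 0.11 (adjusted p = 0.00507) with any array left out. In the hemisphere it read 9.16, 9.27 and 9.12 in SmoM2 hemisphere arrays, against 9.09, 8.73 and 8.91 in WT hemisphere arrays. These groups were separated by a small gap to WT replicate 1, the difference was 0.28 ± 0.11 (adjusted p = 0.099), and it passed without that array.

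Orc6, the smallest subunit of the origin recognition complex, stood at the other end of the set. It read 8.46, 8.68 and 8.55 in SmoM2 hemisphere arrays, against 8.57, 8.58 and 8.55 in WT hemisphere arrays. The hemisphere groups overlapped fully, with a difference of -0.0031 ± 0.09 (adjusted p = 0.987). In the vermis the values were 8.51, 8.60 and 8.54 in SmoM2 vermis arrays, against 8.38, 8.50 and 8.47 in WT vermis arrays, with a difference of 0.10 ± 0.09 (adjusted p = 0.476).

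All 6 subunits of the MCM helicase rose in both regions, with medians of 0.50 and 0.49 in hemisphere and vermis. Mcm4 read 10.55, 10.58 and 10.53 in SmoM2 hemisphere arrays, against 10.13, 9.94 and 9.86 in WT hemisphere arrays. For the vermis the values were 10.40, 10.59 and 10.47 in SmoM2 vermis arrays, against 10.05, 9.78 and 9.87 in WT vermis arrays. The lowest SmoM2 array exceeded the highest WT array in each region, and Mcm4 rose by 0.58 ± 0.11 and 0.59 ± 0.11 (adjusted p = 0.00218 and 0.00183).

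Mcm3 read 9.95, 9.86 and 9.88 in SmoM2 hemisphere arrays, against 9.47, 9.18 and 9.35 in WT hemisphere arrays. Vermis levels were 9.93, 9.78 and 9.73 in SmoM2 vermis arrays, against 9.22, 9.23 and 9.10 in WT vermis arrays. It rose by 0.56 ± 0.10 and 0.63 ± 0.10 (adjusted p = 0.00213 and 0.000833) with no overlap in either region. Mcm6 read 10.99, 11.08 and 11.04 in SmoM2 hemisphere arrays, against 10.72, 10.60 and 10.19 in WT hemisphere arrays, where WT replicate 3 was the lowest array. On the vermis arrays its levels were 10.93, 10.98 and 10.86 in SmoM2 vermis arrays, against 10.48, 10.38 and 10.31 in WT vermis arrays. Mcm6 rose by 0.54 ± 0.12 and 0.53 ± 0.12 (adjusted p = 0.01 and 0.00991), again without overlap, and the calls of Mcm3, Mcm4 and Mcm6 held with any array left out.

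Mcm2, whose N-terminal tail also binds histones, read 9.94, 10.00 and 9.88 in SmoM2 hemisphere arrays, against 9.65, 9.47 and 9.56 in WT hemisphere arrays. It read in the vermis 9.97, 9.96 and 9.82 in SmoM2 vermis arrays, against 9.52, 9.38 and 9.48 in WT vermis arrays. The groups did not overlap in either region, and the rises were 0.38 ± 0.09 and 0.45 ± 0.09 (adjusted p = 0.0162 and 0.00518). Mcm5 averaged 10.81 ± 0.01 in SmoM2 and 10.35 ± 0.23 in WT hemispheres and 10.75 ± 0.05 in SmoM2 and 10.32 ± 0.06 in WT vermis (SD, n = 3 each), and rose by 0.46 ± 0.11 and 0.43 ± 0.11 (adjusted p = 0.0121 and 0.0172). Mcm7, the brightest of the 6, averaged 12.19 ± 0.05 in SmoM2 and 11.84 ± 0.09 in WT hemispheres and 12.15 ± 0.10 in SmoM2 and 11.77 ± 0.11 in WT vermis, and rose by 0.35 ± 0.10 and 0.38 ± 0.10 (adjusted p = 0.0315 and 0.0201).

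Single arrays ended some of the smaller helicase calls. In the hemisphere the call of Mcm2 ended without WT replicate 2 or SmoM2 replicates 1 or 2 (adjusted p up to 0.062), that of Mcm5 without WT replicate 2 (0.055), and that of Mcm7 without WT replicate 2 or any 1 SmoM2 hemisphere array (up to 0.108). In the vermis the call of Mcm5 ended without WT replicates 2 or 3 or SmoM2 replicates 1 or 2 (up to 0.0653), and that of Mcm7 without WT replicate 2 or SmoM2 replicate 2 (up to 0.095). Probe sets not used above also varied in the limma fit over all probe sets. Those of Mcm7 differed by 0.23 to 0.29 in the hemisphere without passing, and by 0.33 to 0.42 in the vermis. A second Mcm5 probe set (mean 8.87) differed by 0.35 in the hemisphere without passing, while a dimmer one (6.55) passed at 0.69.

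**Figure D3:**
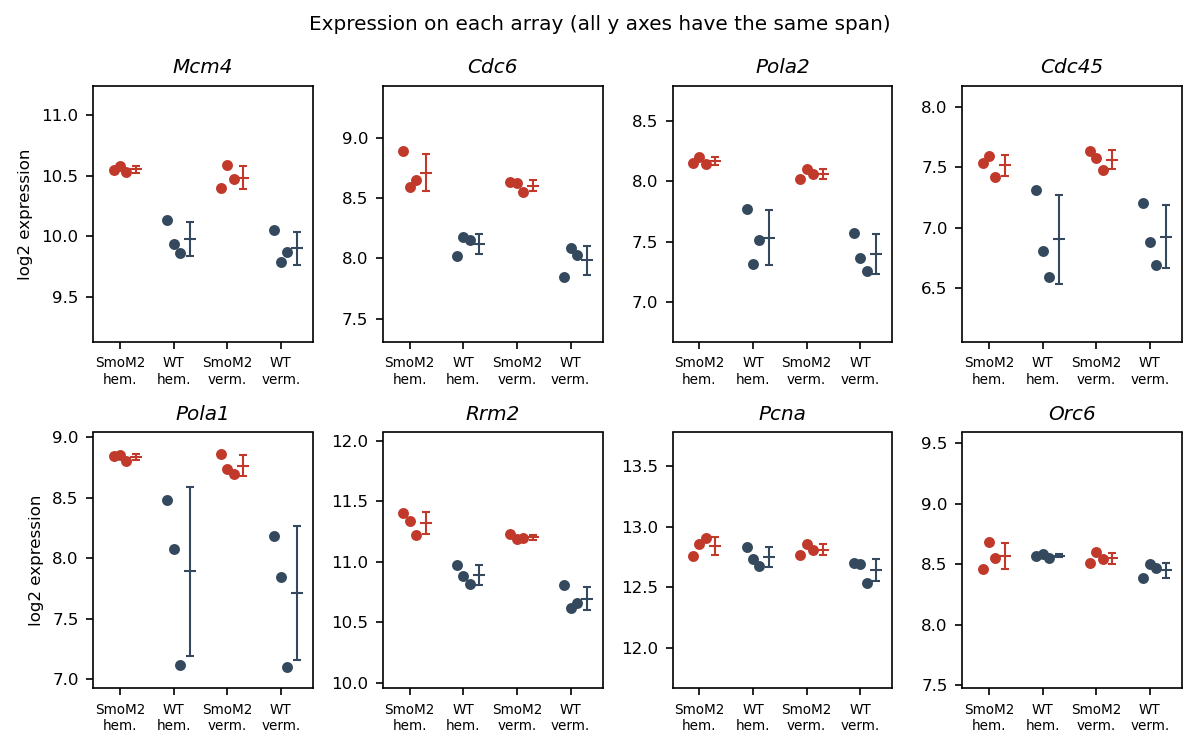
Log2 expression (y axes, all of the same span) of 8 replication genes on every array, SmoM2 in red and WT in dark blue for hemisphere (hem.) and vermis (verm.); points are arrays in replicate order, and the bar beside them is the mean ± SD of 3 arrays. Mcm4, Cdc6, Pola2, Cdc45, Pola1 and Rrm2 show all SmoM2 points above all WT points of the region, while the hemisphere groups of Pcna and Orc6 overlap.

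Of the 8 factors that fire a licensed origin, the hemisphere comparison called 1 and the vermis comparison 2. Cdc45, which joins the MCM ring to form the active helicase, rose in both. It read 7.54, 7.59 and 7.42 in SmoM2 hemisphere arrays, against 7.31, 6.81 and 6.60 in WT hemisphere arrays. For the vermis the values were 7.63, 7.58 and 7.48 in SmoM2 vermis arrays, against 7.21, 6.88 and 6.69 in WT vermis arrays. No SmoM2 array fell below a WT array of the same region, although WT values spread widely (SD 0.37 in the hemisphere and 0.26 in the vermis). Cdc45 rose by 0.61 ± 0.17 and 0.64 ± 0.17 (adjusted p = 0.0234 and 0.0179). Each call ended without 4 of the 12 arrays, which were replicates 2 and 3 of WT and replicates 1 and 2 of SmoM2 of the region concerned (adjusted p up to 0.0946 and 0.0802).

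Mcm10, a scaffold that helps the helicase to activate and links it to polymerase alpha, read 7.81, 7.90 and 7.80 in SmoM2 vermis arrays, against 7.51, 7.33 and 7.29 in WT vermis arrays. It rose there by 0.46 ± 0.10 (adjusted p = 0.00861) with any array left out. In the hemisphere the values were 7.83, 7.99 and 7.76 in SmoM2 hemisphere arrays, against 7.75, 7.62 and 7.54 in WT hemisphere arrays. The hemisphere arrays were separated by a narrow gap, and the difference of 0.23 ± 0.10 did not pass (adjusted p = 0.155).

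The 4 GINS subunits, which bind the helicase with Cdc45, did not pass in either region. Gins2 read 7.29, 7.30 and 7.21 in SmoM2 hemisphere arrays, against 7.46, 7.26 and 7.17 in WT hemisphere arrays. Vermis levels were 7.19, 7.10 and 7.07 in SmoM2 vermis arrays, against 7.01, 7.09 and 6.87 in WT vermis arrays. The groups overlapped in each region, with differences of -0.03 ± 0.10 and 0.13 ± 0.10 (adjusted p = 0.866 and 0.409). Differences of Gins1, Gins3 and Gins4 were 0.03, 0.23 and 0.17 for the hemisphere, and for the vermis 0.18, 0.20 and 0.18. The kinase Cdc7, which phosphorylates the MCM ring, differed by 0.25 ± 0.16 and 0.21 ± 0.16 (adjusted p = 0.296 and 0.354), and its activator Dbf4 by 0.09 ± 0.10 and 0.14 ± 0.10 (0.58 and 0.374). Cdc45 and the GINS subunits act in 1 complex with the MCM ring, and the measured differences of its parts ranged in the hemisphere between -0.03 for Gins2 and 0.61 for Cdc45. Whether these genes differ from each other was not tested.

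Of the 7 polymerase genes 4 passed for the hemisphere and 6 for the vermis, each with a median of 0.53. Pola1, the catalytic subunit of polymerase alpha that starts each new strand, read 8.85, 8.86 and 8.81 in SmoM2 hemisphere arrays, against 8.48, 8.08 and 7.12 in WT hemisphere arrays. On the vermis arrays its levels were 8.86, 8.74 and 8.69 in SmoM2 vermis arrays, against 8.18, 7.85 and 7.10 in WT vermis arrays. SmoM2 arrays agreed closely, while WT arrays covered over 1 log2 unit and replicate 3 was lowest in both regions. Pola1 rose by 0.95 ± 0.29 and 1.06 ± 0.29 (adjusted p = 0.0414 and 0.0229), but the size rests on those WT arrays. Without WT hemisphere replicate 3 the hemisphere difference was 0.56 and did not pass (adjusted p = 0.15), and without WT vermis replicate 3 the vermis difference was 0.75 and did not pass (0.102). In all, the hemisphere call ended without 9 of the 12 arrays, every array except WT hemisphere replicate 1 and WT vermis replicates 1 and 3, and the vermis call without 3, the others being SmoM2 vermis replicates 1 and 2.

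Pola2, the regulatory subunit of the same polymerase, read 8.15, 8.20 and 8.14 in SmoM2 hemisphere arrays, against 7.77, 7.31 and 7.51 in WT hemisphere arrays. It read in the vermis 8.02, 8.10 and 8.06 in SmoM2 vermis arrays, against 7.57, 7.36 and 7.25 in WT vermis arrays. The groups were far apart in both regions, the rises were 0.63 ± 0.12 and 0.66 ± 0.12 (adjusted p = 0.00276 and 0.00194), and they held with any array left out.

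The primase subunits Prim1 and Prim2, which lay the RNA primer, differed by 0.29 ± 0.12 and 0.23 ± 0.12 in the hemisphere and did not pass (adjusted p = 0.127 and 0.208). In the vermis Prim1 averaged 9.97 ± 0.08 in SmoM2 and 9.47 ± 0.20 in WT (SD, n = 3 each) and rose by 0.50 ± 0.12 (adjusted p = 0.0147), a call that ended without WT vermis replicates 2 or 3 or SmoM2 vermis replicate 2 (up to 0.067). Prim2 differed there by 0.33 ± 0.12 (adjusted p = 0.073).

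Pole, the catalytic subunit of the leading strand polymerase epsilon, read 8.18, 8.31 and 8.09 in SmoM2 hemisphere arrays, against 7.62, 7.56 and 7.79 in WT hemisphere arrays. For the vermis the values were 7.86, 8.13 and 8.02 in SmoM2 vermis arrays, against 7.46, 7.33 and 7.45 in WT vermis arrays. No array of one genotype crossed into the other, and Pole rose by 0.53 ± 0.11 and 0.59 ± 0.11 (adjusted p = 0.00413 and 0.00197) with any array left out. Pold1, the catalytic subunit of the lagging strand polymerase delta, read 8.58, 8.73 and 8.48 in SmoM2 hemisphere arrays, against 8.22, 7.79 and 8.08 in WT hemisphere arrays. Vermis levels were 8.66, 8.54 and 8.32 in SmoM2 vermis arrays, against 8.06, 7.87 and 8.10 in WT vermis arrays. The groups did not overlap in either region, and Pold1 rose by 0.57 ± 0.13 and 0.50 ± 0.13 (adjusted p = 0.01 and 0.0195). The vermis call of Pold1 ended without WT vermis replicate 2 or SmoM2 vermis replicates 1 or 2 (up to 0.0871).

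Pole2, an accessory subunit of polymerase epsilon, read 7.61, 7.62 and 7.43 in SmoM2 vermis arrays, against 6.82 to 7.25 over the 3 WT vermis arrays, with no overlap. It rose there by 0.53 ± 0.15 (adjusted p = 0.0251), and this ended without WT vermis replicates 2 or 3 or SmoM2 vermis replicates 1 or 2 (up to 0.105). In the hemisphere it read 7.37, 7.68 and 7.46 in SmoM2 hemisphere arrays, against 7.62, 7.21 and 7.11 in WT hemisphere arrays. There WT replicate 1 lay within the SmoM2 range, and the difference was 0.19 ± 0.15 (adjusted p = 0.404).

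The clamp, its loader and the lagging strand factors formed the largest role with 10 genes. Of these 1 passed in the hemisphere (10.0%) and 3 passed in the vermis (30.0%), against 7.62% and 7.56% of all genes that rose. Pcna, the ring that holds polymerases on DNA and the brightest member of the set, read 12.76, 12.86 and 12.91 in SmoM2 hemisphere arrays, against 12.84, 12.73 and 12.68 in WT hemisphere arrays. On the vermis arrays its levels were 12.77, 12.86 and 12.81 in SmoM2 vermis arrays, against 12.70, 12.69 and 12.54 in WT vermis arrays. The hemisphere groups overlapped and the vermis groups were separated by under 0.1, and neither difference passed (0.09 ± 0.09 and 0.17 ± 0.09; adjusted p = 0.531 and 0.227).

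The 5 subunits of replication factor C load Pcna onto DNA. Rfc3 read 8.40, 8.58 and 8.45 in SmoM2 vermis arrays, against 7.98, 8.11 and 8.13 in WT vermis arrays. It rose there by 0.40 ± 0.12 (adjusted p = 0.032), a call that ended without any 1 of these 6 arrays (up to 0.122). In the hemisphere it read 8.21, 8.55 and 8.39 in SmoM2 hemisphere arrays, against 8.35, 8.33 and 8.64 in WT hemisphere arrays. The hemisphere groups overlapped, with WT replicate 3 the highest of the 6 arrays and a difference of -0.05 ± 0.12 (adjusted p = 0.792). Rfc4 rose by 0.44 ± 0.13 in the vermis (adjusted p = 0.0398), and differed by 0.22 ± 0.13 in the hemisphere (0.279). Its vermis call ended without 6 of the 12 arrays, namely WT vermis replicates 2 and 3, SmoM2 hemisphere replicate 3 and each SmoM2 vermis array (up to 0.127). Rfc2 differed by 0.13 and 0.29 and Rfc5 by 0.32 and 0.34 without passing, though Rfc5 passed in both regions without WT hemisphere replicate 1.

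Rfc1, the large subunit of the loader, had with Orc6 and Gins2 the smallest differences of the set. It read 8.81, 8.99 and 8.87 in SmoM2 hemisphere arrays, against 9.17, 8.93 and 8.66 in WT hemisphere arrays. It read in the vermis 8.75, 8.90 and 8.81 in SmoM2 vermis arrays, against 8.91, 8.71 and 8.72 in WT vermis arrays. WT replicate 1 was the highest array of each region, the groups overlapped, and the differences were -0.03 ± 0.12 and 0.04 ± 0.12 (adjusted p = 0.901 and 0.836).

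Of the enzymes that finish the lagging strand, DNA ligase 1 (Lig1) rose in both regions. It read 9.81, 10.03 and 9.83 in SmoM2 hemisphere arrays, against 9.59, 9.48 and 9.58 in WT hemisphere arrays. For the vermis the values were 9.66, 9.85 and 9.76 in SmoM2 vermis arrays, against 9.45, 9.38 and 9.52 in WT vermis arrays. The arrays did not overlap, yet the rises of 0.34 ± 0.10 and 0.31 ± 0.10 passed narrowly (adjusted p = 0.034 and 0.0488). They ended without 5 arrays in the hemisphere (WT replicates 2 and 3 and each SmoM2 hemisphere array; up to 0.121) and without 9 in the vermis (all but WT hemisphere replicates 1 and 3 and SmoM2 hemisphere replicate 2; up to 0.171). Fen1, the flap nuclease that acts just before the ligase, differed by 0.07 ± 0.10 and 0.05 ± 0.10 (adjusted p = 0.655 and 0.733). The single-strand binding subunit Rpa1 differed by 0.26 ± 0.10 and 0.26 ± 0.10 and its partner Rpa2 by 0.16 ± 0.10 and 0.27 ± 0.10, with adjusted p between 0.0694 and 0.294.

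Nucleotide supply was represented by 3 genes. Rrm2, the subunit of ribonucleotide reductase whose level limits the enzyme in S phase, read 11.41, 11.34 and 11.22 in SmoM2 hemisphere arrays, against 10.97, 10.89 and 10.82 in WT hemisphere arrays. Vermis levels were 11.23, 11.19 and 11.19 in SmoM2 vermis arrays, against 10.81, 10.62 and 10.66 in WT vermis arrays. The groups were well apart, and Rrm2 rose by 0.43 ± 0.10 and 0.51 ± 0.10 (adjusted p = 0.008 and 0.00251) with any array left out. Its partner Rrm1, the large subunit, differed by 0.15 ± 0.12 and 0.22 ± 0.12 (adjusted p = 0.42 and 0.207). Tyms, thymidylate synthase, rose by 0.39 ± 0.12 in the vermis (adjusted p = 0.0376) and differed by 0.25 ± 0.12 in the hemisphere (0.163). Its level, 3.95 ± 0.05 in SmoM2 and 3.56 ± 0.16 in WT vermis (SD, n = 3 each), lay below the median of every array, the only member to do so, and its vermis call ended without 6 of the 12 arrays (WT vermis replicates 2 and 3, SmoM2 hemisphere replicate 3 and each SmoM2 vermis array; up to 0.152).

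Of the 3 genes of the cyclin E kinase, which drives entry into S phase, Cdk2 passed in both regions and the cyclins in neither, with no test made between the subunits. Cdk2, the kinase, read 8.47, 8.50 and 8.66 in SmoM2 hemisphere arrays, against 8.20, 8.19 and 8.19 in WT hemisphere arrays. On the vermis arrays its levels were 8.37, 8.48 and 8.58 in SmoM2 vermis arrays, against 7.96, 8.15 and 8.12 in WT vermis arrays. The groups did not overlap, and Cdk2 rose by 0.35 ± 0.10 and 0.40 ± 0.10 (adjusted p = 0.0298 and 0.0139). The hemisphere call ended without WT replicates 2 or 3 or any 1 SmoM2 hemisphere array (up to 0.124), and the vermis call without SmoM2 vermis replicate 3 (0.0581).

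Cyclin E2 (Ccne2) read 8.55, 8.45 and 8.59 in SmoM2 hemisphere arrays, against 8.37, 8.22 and 7.54 in WT hemisphere arrays. It read in the vermis 8.69, 8.50 and 8.66 in SmoM2 vermis arrays, against 8.02, 8.35 and 7.98 in WT vermis arrays. All SmoM2 arrays exceeded all WT arrays, WT hemisphere replicate 3 was far below the other 2 WT hemisphere arrays, and the differences of 0.49 ± 0.18 and 0.50 ± 0.18 did not pass (adjusted p = 0.0766 and 0.0661). Ccne2 did pass in both regions without WT hemisphere replicate 1, and in the vermis without WT hemisphere replicate 3. Cyclin E1 (Ccne1) read 7.71, 7.49 and 7.51 in SmoM2 hemisphere arrays, against 7.33, 7.38 and 7.84 in WT hemisphere arrays. For the vermis the values were 7.48, 7.49 and 7.47 in SmoM2 vermis arrays, against 7.06, 7.56 and 7.44 in WT vermis arrays. These groups overlapped in both regions, with differences of 0.05 ± 0.15 and 0.13 ± 0.15 (adjusted p = 0.837 and 0.581).

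None of the 3 measured chromatin and histone mRNA genes passed. Uhrf1, which brings the maintenance methyltransferase to new DNA, averaged 10.43 ± 0.12 in SmoM2 and 10.22 ± 0.16 in WT hemispheres and 10.32 ± 0.05 in SmoM2 and 10.00 ± 0.08 in WT vermis (SD, n = 3 each), with differences of 0.21 ± 0.11 and 0.32 ± 0.11 (adjusted p = 0.2 and 0.0522). It passed in the vermis without any 1 of the WT hemisphere arrays. Chaf1b, a subunit of the chromatin assembly factor that follows the fork, differed by 0.27 ± 0.12 and 0.18 ± 0.12 (adjusted p = 0.157 and 0.33). Slbp, which binds the stem-loop of histone mRNAs, differed by 0.17 ± 0.10 and 0.23 ± 0.10 (0.246 and 0.116).

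**Figure D4:**
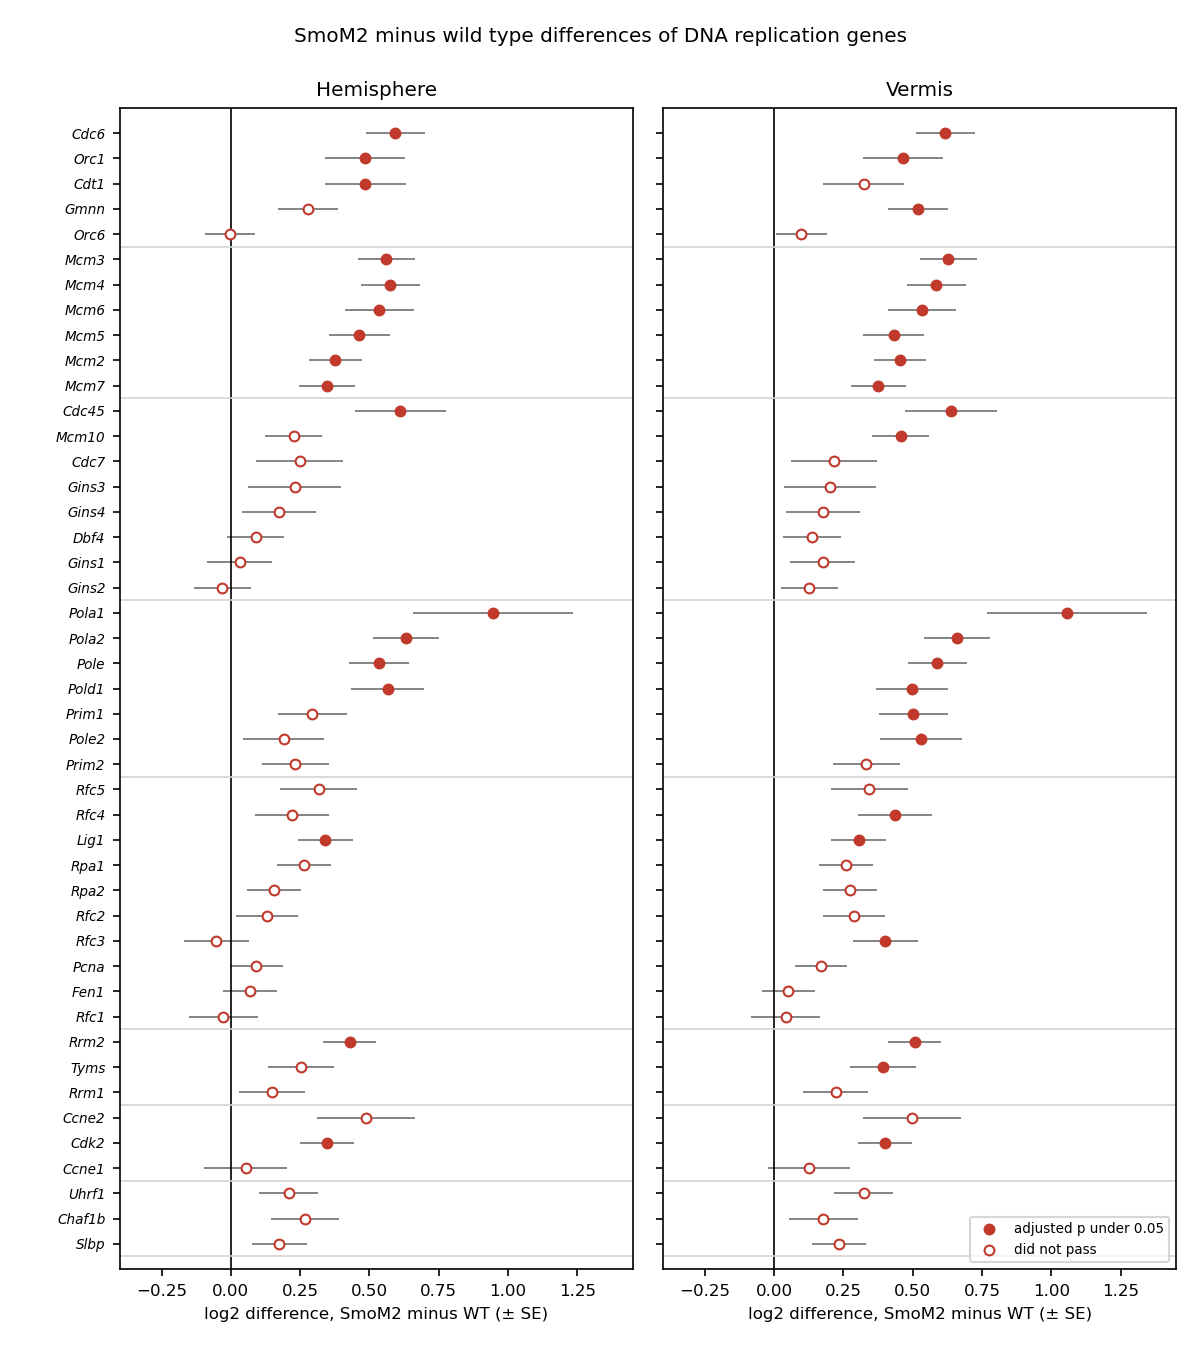
Log2 differences, SmoM2 minus WT, with ± SE (x axes) for the 45 replication genes (rows, by role) in the hemisphere and the vermis; filled points passed at a limma adjusted p under 0.05 and open points did not. Filled points number 17 in the hemisphere and 23 in the vermis, all right of 0, and all 6 MCM helicase genes are filled in both panels.

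The mean levels of 42 of 45 members lay above the upper quartile of every array, 2 lay between median and upper quartile, and Tyms lay below the median. The 45 genes had 99 probe sets with 1 symbol, and 36 members had more than 1. Of the 54 probe sets not used above, 36 lay at or above the lowest array median, and of these 32 and 35 were above 0 for SmoM2 minus WT. By limma 9 and 13 of the 36 passed, and over all 99 probe sets 25 and 33 were higher in SmoM2 and 0 lower. When a gene's probe sets were averaged instead of taking the brightest, the calls of Orc1, Cdt1, Pola1, Pola2, Pold1 and Cdk2 ended in the hemisphere, and those of Orc1, Mcm10, Pola1, Pola2, Rfc3, Tyms and Cdk2 in the vermis.

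The regions were then compared within a genotype, the question the design raises about lateral and midline progenitors. In SmoM2, hemisphere minus vermis, 0 of 45 members passed (0.0165% of all genes higher and 0.044% lower, 0.0605% in all). There 0 members had an unadjusted p under 0.05, beside 661 of all 18194 genes, and the median difference was 0.06. In WT 0 of 45 members passed as well (0.0385% of all genes higher and 0.148% lower, 0.187% in all). Here 4 members had an unadjusted p under 0.05, beside 1149 of all 18194 genes. The median was 0.12 with 41 of 45 differences above 0, a share that was not counted over all genes between regions. The medians over all genes were 0.0051 and -0.0025. All 3 hemisphere arrays lay above all 3 vermis arrays for 6 members in SmoM2 (5.64% of all genes) and for 7 in WT (4.07% of all genes), and the reverse held for 0 members (5.09% and 4.69% of all genes). The WT median was 0.06 without WT hemisphere replicate 1. The labels do not say that same-numbered arrays of the regions share a pool. Taken as pairs by that number, the hemisphere array had the higher mean over the members in 3 of 3 SmoM2 and 3 of 3 WT pairs. The means are given above for each array. With these inferred pairs as a block 0 members passed in either genotype.

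The members with the smallest p in the SmoM2 comparison of regions were Pole, Gins2 and Lig1, at 0.19 ± 0.11, 0.15 ± 0.10 and 0.13 ± 0.10 (hemisphere minus vermis; unadjusted p = 0.101, 0.178 and 0.197). In WT they were Rfc3, Gins2 and Mcm10, at 0.36 ± 0.12, 0.30 ± 0.10 and 0.26 ± 0.10 (unadjusted p = 0.00792, 0.0107 and 0.0256; adjusted p = 0.433, 0.492 and 0.673). For these 3 genes all WT hemisphere arrays lay above all WT vermis arrays, as the values given above show.

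Whether the SmoM2 difference itself depended on the region was tested as the interaction, the SmoM2 difference in the hemisphere minus that in the vermis. No member passed, and neither did any of the 18194 genes (0.0% called), although 564 genes and 1 member had an unadjusted p under 0.05. The member was Rfc3 (-0.45 ± 0.17, unadjusted p = 0.0162), followed by Pole2 (-0.34 ± 0.21, 0.125) and Gmnn (-0.24 ± 0.15, 0.137). The median interaction of the members was -0.06. So the count was larger in the vermis, 23 against 17, but no member passed the test for a SmoM2 difference that depends on the region.

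Other genes of the replication pathway were read from a second list. This list of 48 replication genes (accessory subunits, fork protection, chromatin assembly and salvage enzymes) had 45 measured genes: 8 and 11 rose in hemisphere and vermis, none fell, and the medians were 0.23 and 0.25. Chtf18, part of an alternative clamp loader, rose by 0.97 ± 0.25 and 0.86 ± 0.25 (ended without 1 and without 5 of the 12 arrays, all of the groups compared), and Pold2, a polymerase delta subunit, by 0.49 ± 0.16 and 0.62 ± 0.16 (adjusted p = 0.0483 and 0.0156). Hells, a chromatin remodeller, rose by 0.53 ± 0.17 in the vermis (adjusted p = 0.043), and Donson, a replication fork factor, by 0.59 ± 0.17 in the hemisphere (0.036). Donson differed by 0.50 ± 0.17 in the vermis without passing (adjusted p = 0.0614). No gene of this second list passed in the interaction.

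Controllers of the step into S phase moved both ways. On that list of 30 genes, the hemisphere had 12 that rose beside 3 that fell, and the vermis 15 beside 1. Cdk6, a kinase partner of the D-type cyclins, rose by 1.95 ± 0.09 and 2.14 ± 0.09 (adjusted p = 5.32e-09 and 3.21e-09), and cyclin D1 (Ccnd1) by 1.37 ± 0.15 and 1.59 ± 0.15. Myc, a transcription factor of growth, rose by 1.71 ± 0.12 and 1.56 ± 0.12, and cyclin D3 (Ccnd3) by 0.70 ± 0.10 and 0.59 ± 0.10. E2f1, an activator of the members' class of promoters, rose by 0.54 ± 0.14 in the vermis (adjusted p = 0.0198) and differed by 0.38 ± 0.14 in the hemisphere (0.087); the vermis call ended without WT vermis replicates 2 or 3 or SmoM2 vermis replicate 1. The inhibitor Cdkn1c rose by 0.81 ± 0.13 and 0.66 ± 0.13, and Tfdp2, a partner of E2F proteins, fell (-0.94 ± 0.11 and -0.81 ± 0.11). Cdkn1b, the inhibitor that restrains these progenitors, fell in the hemisphere (-0.34 ± 0.10, adjusted p = 0.0367), but differed by 0.0379 with all its probe sets averaged, and the call ended without 7 of the 12 arrays. Cyclin D2 (Ccnd2) differed by -0.24 and -0.18 and Mycn by 0.41 and 0.41, and neither passed, though Mycn did without WT hemisphere replicate 3 or WT vermis replicate 3 in both regions.

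Mitosis genes, which follow replication in the cycle, had 35 measured genes. Hemisphere and vermis called 1 and 13 of them higher and none lower, with medians of 0.16 and 0.35. The called shares were 2.86% and 37.1%, against 7.62% and 7.56% of all genes that rose. Kif2c, a mitotic kinesin, rose by 0.48 ± 0.15 and 0.61 ± 0.15 (adjusted p = 0.0449 and 0.0132), and was the 1 gene of the hemisphere, where the call ended without 9 of the 12 arrays. Plk1, a mitotic kinase, and Kif20a, a kinesin of cytokinesis, rose in the vermis by 0.70 ± 0.18 and 0.71 ± 0.19. Neither passed in the hemisphere, where differences on the list reached 0.55. The proliferation marker Mki67 differed by 0.24 ± 0.10 and 0.28 ± 0.10 without passing (adjusted p = 0.11 and 0.0661). The mitosis counts moved with single arrays more than those of the members: 8 genes passed in the hemisphere without WT hemisphere replicate 1 and 0 without WT replicates 2 or 3, while in the vermis 1 gene passed without WT vermis replicate 2, 0 without WT vermis replicate 3, and 1 to 5 when a SmoM2 vermis array was left out. The interaction of mitosis genes was below 0 for 35 of 35, with a median of -0.15 (0.01 over all genes), but with 0 genes past the threshold by limma and 0 at an unadjusted p under 0.05. These genes share the same 12 arrays, so their signs are not independent. Their mean level centred on each gene was 0.16 on WT hemisphere replicate 1, against -0.11 and -0.17 on WT hemisphere replicates 2 and 3.

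**Figure D5:**
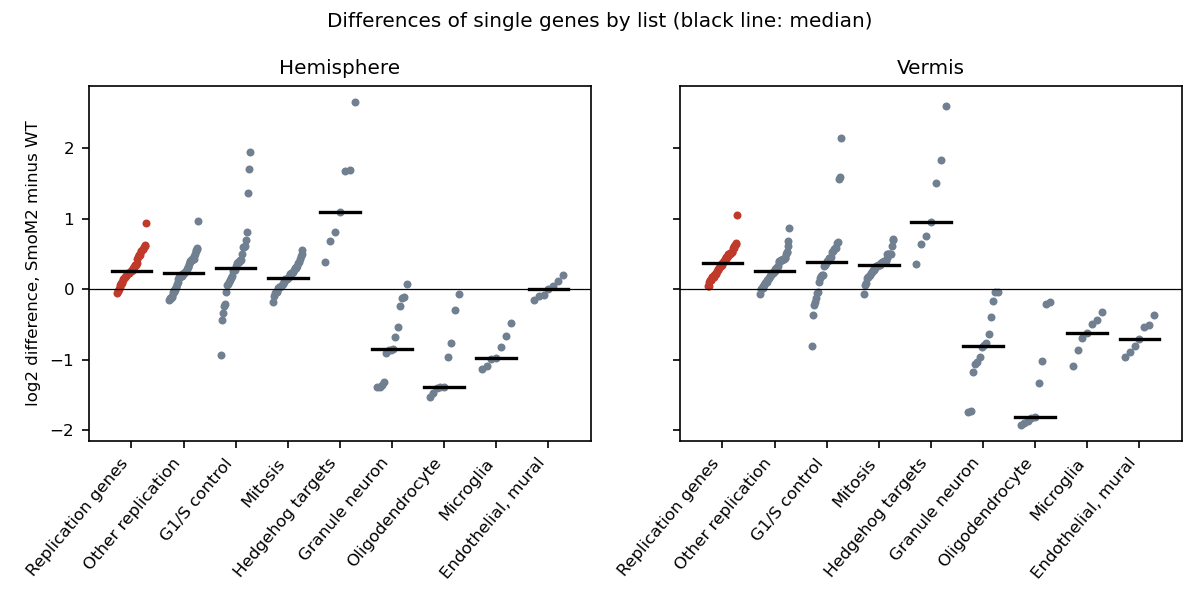
Log2 differences, SmoM2 minus WT (y axis), of single genes by list in the hemisphere and the vermis; each point is a gene, replication genes are red, and black lines are medians. Replication genes centre on 0.26 and 0.38, the hedgehog list (targets and co-receptors) on 1.10 and 0.96, and granule neuron genes on -0.86 and -0.80.

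Markers of several other cell types were lower in SmoM2, while those of astroglia went both ways. Of 14 granule neuron genes 10 fell in the hemisphere, 11 fell in the vermis and 0 rose, and their mean log2 level was 7.93 to 8.10 on SmoM2 hemisphere arrays against 8.68 to 8.86 on WT hemisphere arrays, and 7.82 to 7.99 on SmoM2 vermis arrays against 8.69 to 8.81 on WT vermis arrays. Of 9 oligodendrocyte genes 7 were lower in each region, with mean levels of 7.26 to 7.80 against 8.52 to 8.63 in the hemisphere and 7.42 to 7.92 against 8.76 to 9.20 in the vermis, SmoM2 before WT. Among them, the log2 difference of the neurogenic factor Neurod1 was -0.85 ± 0.09 and -0.82 ± 0.09, and that of the myelin protein gene Mbp -1.39 ± 0.21 and -1.81 ± 0.21. Of 7 microglial genes 6 and 5 were lower, and of 7 endothelial and mural genes 0 in the hemisphere (median 0.0067) and 4 in the vermis. Of 6 Purkinje cell and interneuron genes 2 and 3 were lower and 0 higher, and of 2 erythroid genes 0 and 1 were lower. Of 8 astrocyte and Bergmann glia genes 2 were higher (Slc1a2 by 0.76 and 0.54, S100b by 0.52 and 0.44) and 2 lower (Aqp4 -0.86 and -0.85, Gdf10 -0.80 and -0.71) in each region; their mean levels were 8.75 to 9.21 on SmoM2 and 9.01 to 9.43 on WT hemisphere arrays, and 9.02 to 9.43 on SmoM2 and 9.17 to 9.54 on WT vermis arrays. No marker was at a true 0, since RMA gives none. In RNA from a whole fraction, fewer cells of a type and less RNA per cell cannot be told apart, and a smaller share of cells that have left the cycle cannot be told apart from more replication mRNA per dividing cell. The part of the cell makeup in the differences of the replication genes was not tested.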

How the data were processed

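Expression was measured in total RNA on Affymetrix mouse 3' expression arrays as biotin-labelled cRNA, per the labels. The values deposited by the authors are log2 signal for each probe set from RMA in Partek, per the submitters' processing notes, which give no version or setting. Of 45101 probe sets 34958 had 1 gene symbol in the platform annotation, and the brightest of these over the 12 arrays stood for its gene (18194 genes).

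A linear model with the 4 groups was fitted to all genes with limma 3.58.1 in R 4.3.3 (8 residual degrees of freedom, 14.02 after moderation, median SD between arrays 0.16), with p-values adjusted by Benjamini-Hochberg over all genes and a threshold of 0.05. All adjusted and unadjusted p-values, 2-sided, come from this fit or from an alternative of it. With 3 arrays per group their number limits the precision. In simulated data of the same size, with 100 genes changed by each fold, the hemisphere comparison called 50% at 1.5-fold and 94% at 2-fold, and the vermis comparison 48% and 91%. Changed genes were far fewer there than in these data, where 14.8% and 17.0% of all genes were called. The adjusted threshold depends on that share, so these rates do not give the sensitivity of the real comparisons.

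Values on each array are given for the members with the 12 largest and 3 smallest mean differences, the 3 with the smallest p in each comparison of regions and in the interaction, and Pcna, Mcm2, Ccne1, Cdk2 and Gmnn. Lig1, Rfc3, Mcm10 and Pole2 enter through the region and interaction rule. Of other lists, up to 6 genes with the largest differences and a few fixed genes are named; Mbp, Pax6, Meis1, Barhl1 and the named astroglial genes were chosen after their values were seen. The members, lists and promoter motifs were chosen with earlier results of these data known.

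Same-numbered hemisphere and vermis arrays deviated together within a genotype, with correlations of 0.527, 0.337 and 0.511 in WT and 0.142, 0.275 and 0.166 in SmoM2. The labels do not say that such arrays share a pool of mice, so the pairing is inferred. Blocking on genotype and replicate number left 0 members called between regions. Alternatives changed the probe set per gene, the features tested, the normalization, the filter on dim genes, the block, the samples in the fit, the moderation, the array weights and each array in turn.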

Additional observations from a re-analysis of the deposited data

How the results depend on the processing

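Across the alternatives no member fell, and the counts moved with single arrays, the arrays that set the spread and the array weights. With any 1 array left out, 8 to 23 members rose in the hemisphere and 11 to 27 in the vermis, and under the other settings 8 to 18 and 16 (no moderation) to 30 (array weights). The second replication list gave 2 to 18 and 3 to 14. The list of G1/S control gave 6 to 15 and 7 to 18 higher and 1 to 2 lower in each region. The mitosis list gave 0 to 8 and 0 to 19, and the hedgehog list 6 to 7 in each. With only the groups compared in the fit, 8 members, 2 genes of the second replication list, 7 higher and 1 lower of G1/S control and 0 of mitosis passed in the hemisphere. With the replicate block, which the numbers do not justify across genotypes, 17 and 24 members passed, 13 genes of the second list and 3 of mitosis in the hemisphere, and 2 of G1/S control were lower in the vermis. Array weights gave 18 of the second list and 2 lower of G1/S control in the vermis and 4 of mitosis in the hemisphere. Renewed quantile normalization gave 5 of the second list in the hemisphere and 0 and 6 of mitosis. Fitting all probe sets gave 0 and 8 of mitosis, no moderation 8 in the vermis, trended moderation 4 and brighter genes 2 in the hemisphere. Under every setting run, 6 members rose in the hemisphere (Cdc6, Mcm3, Mcm4, Mcm6, Pole and Rrm2) and 8 in the vermis (those with Gmnn and Mcm2). Signs turned for differences near 0, none of which passed: by quantile normalization Gins1 (-0.0281) and Ccne1 (-0.0531) in the hemisphere and Rfc1 (-0.0146) and Fen1 (-0.0022) in the vermis, and by the mean of probe sets Rfc1 (0.2732). Leaving out 1 array also turned some, whose ranges in the hemisphere were -0.0602 to 0.0481 for Orc6, -0.0605 to 0.1369 for Gins1, -0.0928 to 0.0499 for Gins2, -0.1581 to 0.0966 for Rfc1, -0.1356 to 0.0479 for Rfc3 and -0.0417 to 0.2146 for Ccne1, and in the vermis -0.0235 to 0.1043 for Fen1 and -0.0237 to 0.2302 for Ccne1. Of called differences Cdkn1b turned, to 0.0379 with the mean of probe sets. The cause of these changes was not tested.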
